A study of Mus musculus with 7 samples.

Results

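The glutathione S-transferase genes described here are Gsta2, Gsta3 and Gsta4 of the alpha class, Gstm1, Gstm2 and Gstm3 of the mu class, Gstp1 of the pi class, and Gstt1, Gstt2 and Gstt3 of the theta class. They are 10 of the 32451 genes on a mouse expression array, named through the RefSeq accession of their probes, and were chosen by family membership. The study asked how a high-fat diet alters gene expression in mouse liver. Livers came from male C57/BJ mice fed a high-fat diet (HFD; D12331, Research Diets; 3 samples) or a control chow (Provimi Kliba; 4 samples). Feeding began at 6 weeks of age and lasted 20 weeks, so that the mice were 26 weeks old at harvest, and no other agent or allele is named for either group. Total RNA (0.5 ug per sample) was labelled with the dye Cy3 and hybridised to 1 Agilent array per sample. The labels do not tie samples to single animals, so p-values measure only the spread between these samples, and the small number of arrays limits the precision. Because whole liver was measured, fewer cells of a type and less RNA per cell cannot be told apart.

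Glutathione S-transferases join the tripeptide glutathione to electrophilic compounds, among them drugs, carcinogens and products of lipid peroxidation, and so make them more soluble and ready for export. The alpha, mu, pi and theta enzymes are cytosolic dimers, and hepatocytes are a main site of their synthesis. Several of their genes are known targets of the transcription factor NRF2, which binds antioxidant response elements, and mouse liver is known to make more Gstp1 in males than in females. Each conjugate is then trimmed and acetylated to a mercapturic acid. Separately, oxidised glutathione is reduced again with NADPH, some of it from the pentose phosphate pathway.

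Promoter sequences from RefSeq (build GRCm38.p6, 250 bases before to 50 bases after the start site) were matched for 8 of the 10 genes. Those of the 3 genes with a diet comparison are shown with that of Gsta3, which alone held the searched core of the antioxidant response element, TGACNNNGC on either strand. Capitals mark a match: the core in Gsta3, and in Gstp1 TGAGTCA, a sequence that AP-1 factors are known to bind, which was searched on both strands after the promoter had been read. The Gstm2 window is chr3:107986371-107986670, minus strand, the Gstt1 window is chr10:75797682-75797981, minus strand, the Gstp1 window is chr19:4037863-4038162, minus strand, and the Gsta3 window is chr1:21240335-21240634, plus strand.
Gstm2: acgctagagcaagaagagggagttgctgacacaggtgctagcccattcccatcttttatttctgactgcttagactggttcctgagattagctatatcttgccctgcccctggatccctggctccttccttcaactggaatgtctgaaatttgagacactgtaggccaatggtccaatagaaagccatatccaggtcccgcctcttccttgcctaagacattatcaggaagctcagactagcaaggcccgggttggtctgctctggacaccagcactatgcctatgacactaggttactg
Gstt1: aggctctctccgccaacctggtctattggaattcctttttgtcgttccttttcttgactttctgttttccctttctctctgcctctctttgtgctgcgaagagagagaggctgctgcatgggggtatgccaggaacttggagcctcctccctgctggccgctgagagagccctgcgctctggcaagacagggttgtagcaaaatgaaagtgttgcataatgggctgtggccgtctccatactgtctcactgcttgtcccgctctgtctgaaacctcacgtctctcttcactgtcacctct
Gstp1: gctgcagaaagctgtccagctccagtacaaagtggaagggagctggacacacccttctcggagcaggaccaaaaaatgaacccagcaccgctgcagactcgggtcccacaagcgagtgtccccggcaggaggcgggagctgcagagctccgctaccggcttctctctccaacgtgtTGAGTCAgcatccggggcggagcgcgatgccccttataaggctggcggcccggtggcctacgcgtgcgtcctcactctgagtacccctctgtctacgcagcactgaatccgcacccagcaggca
Gsta3: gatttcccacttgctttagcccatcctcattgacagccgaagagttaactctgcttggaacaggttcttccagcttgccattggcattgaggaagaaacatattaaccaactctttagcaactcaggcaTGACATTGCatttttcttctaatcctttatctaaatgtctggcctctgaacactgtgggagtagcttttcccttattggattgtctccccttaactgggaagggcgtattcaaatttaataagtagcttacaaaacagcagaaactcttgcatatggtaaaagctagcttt
Relative to the start site, the Gsta3 match began at position -121 and the Gstp1 match at position -74. The core was present in 12.4% of the 32851 promoters in the RefSeq table, and TGAGTCA was present in 5.2% of them. The Gstp1 letters TGAGTCAgc differ from the searched core only in the base after TGA, and no wider form of the element was searched. A match describes the letters of the window and not a bound site.

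The diet comparison was possible for 3 of the 10 genes. The authors deposited a table of log2 levels for 1615 probes of 1488 genes, and at every one of those probes the HFD and chow values did not overlap. Gstm2, Gstt1 and Gstp1 were in it, and the other 7 genes were not. Since the table holds separated probes alone, the direction in every sample is given by the table's selection, and its p-values are not independent evidence of a change. Each HFD column matched the scanner file of the same sample (r from 0.99992 to 0.99994). The chow columns did not match the scanner files labelled chow (r from 0.580 to 0.589), and in those files 8 of 14 hepatocyte markers were well above background on all 4 arrays and 5 on none, against 14 of 14 on all 3 HFD arrays. Chow levels are therefore given from the deposited table. The scan day of its chow values is not known and all HFD arrays were scanned on 1 day, so scan day and diet cannot be told apart.

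In HFD livers Gstm2 and Gstt1 were higher and Gstp1 was lower than in chow livers, each past an adjusted p of 0.05 in limma with Benjamini-Hochberg adjustment over all 32451 genes. That is 2 genes called higher, where 325 genes or 1.0% of the array were called higher, and 1 called lower, where 263 genes or 0.810% were. By presence in the table alone the same genes count as 2 higher and 1 lower, where 2.47% of all genes were listed as higher and 2.12% as lower. The median log2 difference of the 3 genes was 0.67, against 0.44 over the 1488 listed genes, and the median size regardless of sign was 1.18, against 0.827. The 3 folds were larger than those of 78.8% of listed genes for Gstm2, 75.2% for Gstp1 and 34.5% for Gstt1. None of the 3 calls held in all of the 7 fits that left out 1 sample, as given for each gene.

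**Figure D1:**
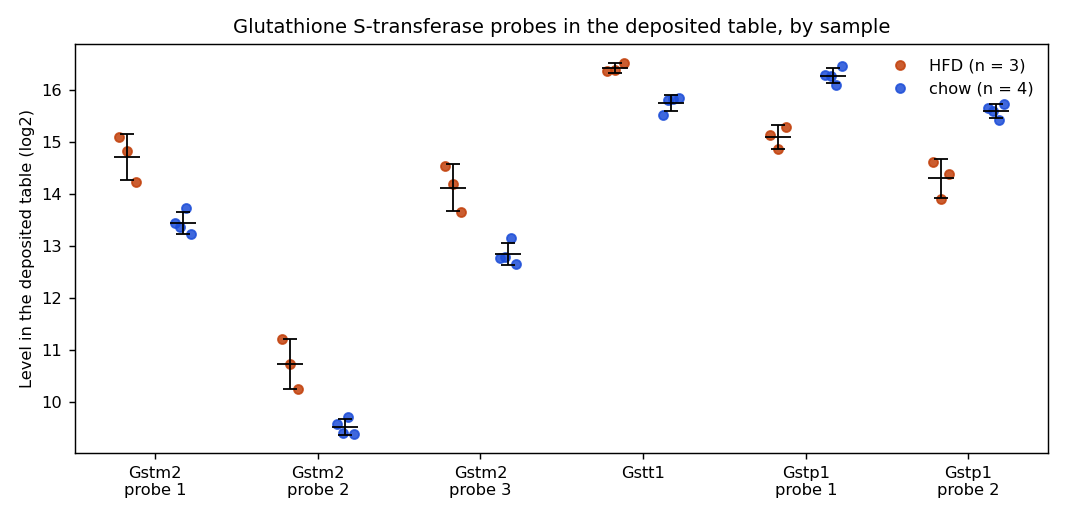
Deposited log2 level of each listed probe of Gstm2 (3 probes), Gstt1 (1 probe) and Gstp1 (2 probes) in each liver sample, with HFD samples to the left of chow samples and bars at the group means ± SD (n = 3 HFD, n = 4 chow). Gstm2 and Gstt1 lie higher and Gstp1 lies lower in HFD, with no overlap, which the selection of the table fixed.

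Gstm2 encodes a mu-class enzyme that conjugates aromatic and quinone electrophiles. Its deposited log2 levels were 15.10, 14.83 and 14.23 in HFD replicates 1, 2 and 3, against 13.44, 13.36, 13.74 and 13.23 in chow replicates 1 to 4. The lowest HFD value was 0.49 above the highest chow value, and HFD replicate 3 lay nearest to chow. The means were 14.72 ± 0.445 in HFD (SD, n = 3) and 13.44 ± 0.216 in chow (SD, n = 4), a log2 difference of 1.28 (SE 0.224) or 2.42-fold, with an adjusted p of 0.0465 (limma).

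Gstm2 had 3 probes, and all were listed. The second probe read 11.21, 10.73 and 10.26 in HFD, against 9.584, 9.406, 9.708 and 9.394 in chow, or 2.31-fold higher in HFD. The third read 14.54, 14.19 and 13.65 in HFD, against 12.78, 12.80, 13.15 and 12.66 in chow, or 2.43-fold higher in HFD. On each probe the HFD order was replicate 1, then 2, then 3, and chow replicate 3 was the highest of its group. With 1 sample left out, the log2 difference of Gstm2 lay between 1.09 and 1.52, and the adjusted p (limma) stayed past the threshold in 1 of 7 fits, that without HFD replicate 3 (0.0276). It reached 0.183 without HFD replicate 2.

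Gstt1 encodes a theta-class enzyme that acts on small halogenated compounds, among them dichloromethane. Its 1 probe read 16.36, 16.38 and 16.53 in HFD, against 15.53, 15.81, 15.83 and 15.85 in chow. The 3 HFD values lay closer together than the chow values, among which replicate 1 was the lowest, and the nearest values of the groups were 0.51 apart. The means were 16.42 ± 0.0929 in HFD and 15.76 ± 0.151 in chow (SD, n = 3 and 4), a log2 difference of 0.67 (SE 0.116) or 1.59-fold, with an adjusted p of 0.0456 (limma). This was the smallest difference of the 3 genes, and none of the 7 fits without 1 sample passed the threshold (log2 difference 0.59 to 0.70, adjusted p in limma 0.0909 to 0.157).

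Gstp1 encodes the pi-class enzyme, one of the most plentiful transferases of male mouse liver. It read 15.14, 14.86 and 15.30 in HFD, against 16.29, 16.27, 16.10 and 16.46 in chow. All HFD values lay at least 0.80 below the lowest chow value. The means were 15.10 ± 0.223 in HFD and 16.28 ± 0.147 in chow (SD, n = 3 and 4), a log2 difference of -1.18 (SE 0.141), which is 2.27-fold lower in HFD, with an adjusted p of 0.0249 (limma).

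The second Gstp1 probe read 14.62, 13.90 and 14.39 in HFD, against 15.66, 15.60, 15.42 and 15.74 in chow, and was 2.47-fold lower in HFD. HFD replicate 2 was the lowest sample on both probes. With 1 sample left out, the log2 difference lay between -1.28 and -1.06, and the adjusted p (limma) passed the threshold in 1 of 7 fits, that without HFD replicate 3 (0.0278), and reached 0.0998 without HFD replicate 2. The near-identical neighbour Gstp2, which is not among the 10 genes, had a listed log2 difference of -0.49 (adjusted p of 0.0670, limma) on its brighter probe and -1.15 on its second. RNA of both genes may bind the probes of either, so the share of each in these values is uncertain.

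**Figure D2:**
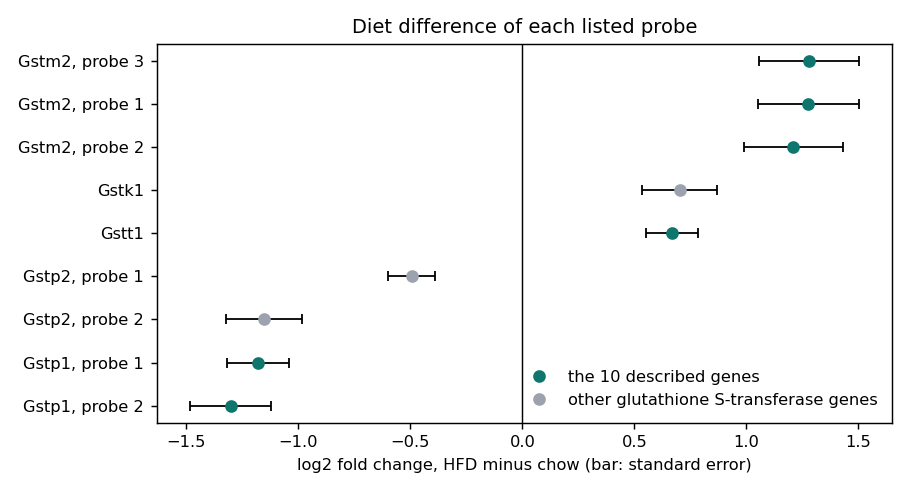
Log2 difference, HFD minus chow, of each probe of a glutathione S-transferase gene in the deposited table, with bars for ± 1 SE from limma and the line at 0 marking equal levels. All 3 Gstm2 probes lie between 1.21 and 1.28 and both Gstp1 probes between -1.30 and -1.18.

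**Figure D3:**
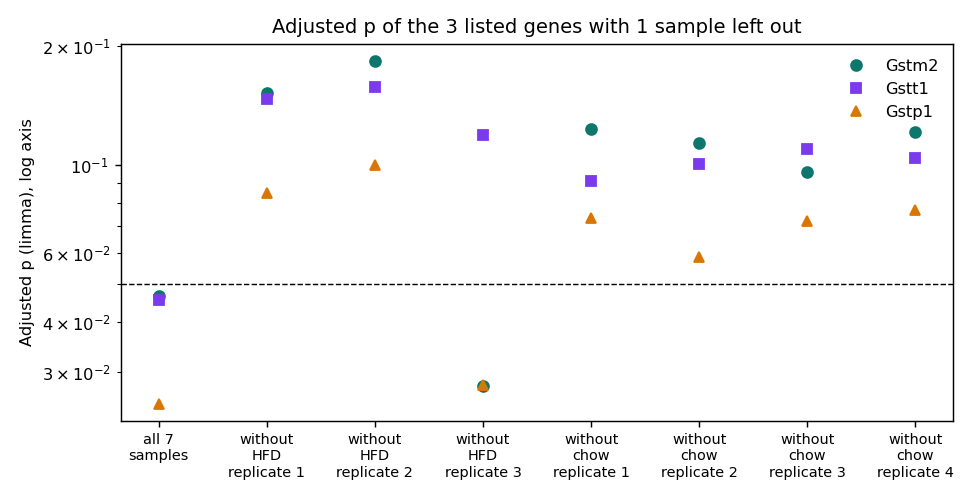
Adjusted p (limma, log axis) of Gstm2, Gstt1 and Gstp1 with all 7 samples and with each sample left out, HFD samples first, and a dashed line at 0.05. All 3 genes lie under the line with all samples, and Gstm2 and Gstp1 lie under it without HFD replicate 3.

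Among the other glutathione S-transferase genes, 16 had a probe and 14 were well above background on all 3 HFD arrays. Of these, 2 were in the deposited table, namely Gstp2 and Gstk1, and neither passed the threshold on the probe that represented the gene. For Gstp2 that was the brighter probe, with a log2 difference of -0.49. Its second listed probe had a larger difference (-1.15) and was not itself set against the threshold, so the Gstp2 result holds for the brighter probe only. Gstk1, the mitochondrial and peroxisomal kappa-class enzyme, had a log2 difference of 0.70 (adjusted p of 0.0874, limma). The genes lie in clusters, in the order Gstm6, Gstm3, Gstm2, Gstm1 and Gstm4 on chromosome 3, and Gstt3, Gstt1, Gstt4 and Gstt2 on chromosome 10. Of the mu cluster Gstm2 was listed, and of the theta cluster Gstt1 was listed. Whether their neighbours differed between diets was not tested, since the table holds no value for them.

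The deposited values allowed the within-group pattern of the 3 genes to be set beside other listed genes, as deviations from the group means over 7 samples. The 3 named genes most like Gstm2 were Gprc5b (r = 0.990), an orphan receptor gene, Gpnmb (r = 0.988), a glycoprotein gene of lipid-laden macrophages, and Ccr2 (r = 0.986), the chemokine receptor gene of recruited monocytes. In each, HFD replicate 1 was the highest and HFD replicate 3 the lowest of the HFD samples, and chow replicate 3 was the highest chow sample, as for Gstm2. The 4 chow values of Gpnmb lay between 2.15 and 3.45, under the lowest level of a listed probe called well above background on any HFD array (3.72), so its chow deviations are those of a dim probe. Most like Gstp1 were Nme1 (r = 0.891), Mettl3 (0.878) and Gckr (0.876), and most like Gstt1 were Ces2e (0.965), Bglap3 (0.931) and Irf2bp2 (0.927). The deviations of Gckr lay between -0.027 and 0.023, so its r rests on very small differences. Unlike Gstp1, Gckr was higher in HFD (log2 difference 0.52). Between the 3 genes r was -0.67 for Gstm2 and Gstp1, -0.39 for Gstm2 and Gstt1, and 0.25 for Gstp1 and Gstt1. These correlations share samples and arrays, and each was picked as the highest of many or rests on 7 points.

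**Figure D4:**
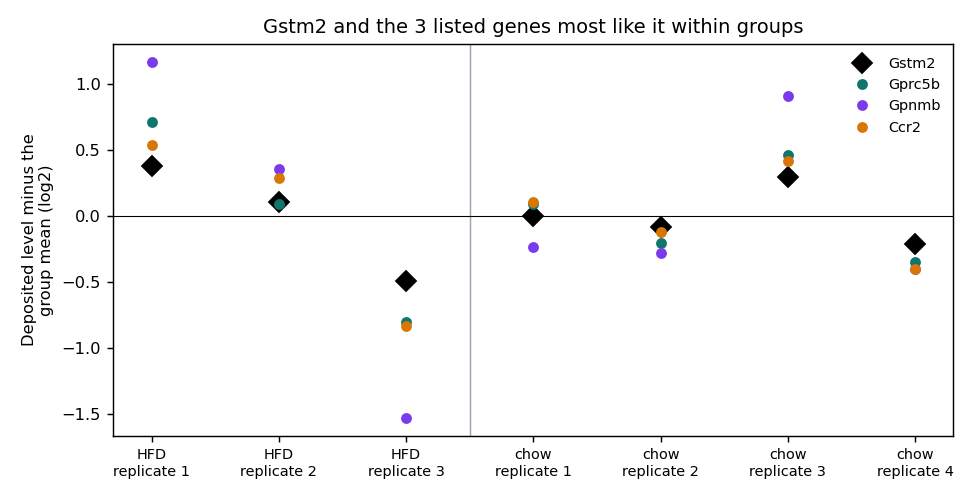
Deposited log2 level minus the group mean in each sample, HFD samples to the left of chow samples, for Gstm2 (diamonds) and the 3 listed genes with the most similar deviations (circles). HFD replicate 1 lies highest and HFD replicate 3 lowest of the HFD samples for all 4 genes.

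On the HFD scanner arrays all 10 genes were well above background in 3 of 3 samples. Levels are given as log2 processed signal minus the 75th percentile of the same array, so a value of 0 is a probe at that percentile, and levels of different probes are not compared. These arrays hold no chow reading that could be used, so the values describe HFD livers and their spread.

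In the alpha class, Gsta2, an antioxidant-inducible enzyme, read 3.37, 2.64 and 1.78 in HFD replicates 1, 2 and 3, with an SD of 0.792. Gsta3, which detoxifies the aflatoxin epoxide in mice, read 7.98, 8.35 and 8.25, with an SD of 0.190. Gsta4, which conjugates the lipid peroxidation product 4-hydroxynonenal, read 0.77, 0.36 and 0.20 over 10 spots per array. Gsta2 spread over 1.58 log2 units between the arrays, while Gsta3 spread over 0.367. The order of Gsta3 depended on the scaling: replicate 1 was the lowest here and with normexp background correction, and the highest with quantile normalisation (8.33, 8.19 and 8.09, SD 0.119).

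In the mu class, Gstm1, a major hepatic transferase, read 7.48, 7.14 and 6.60 (SD 0.445). Gstm2 on the same scale read 5.28, 5.19 and 4.61 (SD 0.363). Gstm3 read 4.52, 3.84 and 3.20 (SD 0.659), and its second probe read 4.86, 3.90 and 2.49. All 3 mu genes were highest in replicate 1 and lowest in replicate 3. Whether their probes also bind RNA of the other mu genes was not tested, since probe sequences were not used.

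Gstp1 read 5.32, 5.23 and 5.66 (SD 0.229) and was highest in replicate 3. Its second probe read 4.83, 4.25 and 4.77 and was highest in replicate 1, so the probes had in common that replicate 2 was the lowest. In the theta class, Gstt1 read 6.48, 6.73 and 6.89 (SD 0.205), Gstt2 read 2.77, 3.30 and 2.08 (SD 0.609), and Gstt3 read 3.36, 3.57 and 3.61 (SD 0.136). Gstt1 and Gstt3 were lowest in replicate 1, whereas Gstt2, whose human counterpart acts on sulfate esters, was lowest in replicate 3. With quantile normalisation the SD was 0.0864 for Gstt1 and 0.0782 for Gstt3, each smaller by over 1.5 times, and both genes were still lowest in replicate 1.

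**Figure D5:**
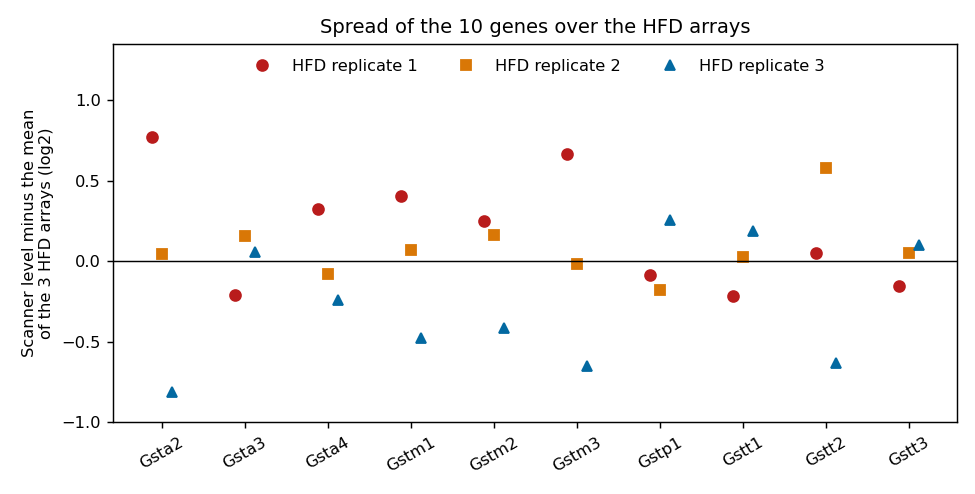
Scanner level of each of the 10 genes on the 3 HFD arrays, as log2 level minus the gene's mean over those arrays. Replicate 1 lies highest and replicate 3 lowest for Gsta2, Gsta4, Gstm1, Gstm2 and Gstm3, and Gsta2 and Gstm3 have the widest spread.

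Spread between HFD samples differed among the genes. The SD of Gsta2 exceeded that of 97.8% of the 17613 genes well above background on all HFD arrays, that of Gstm3 95.7% and that of Gstt2 94.5%. With quantile normalisation these shares were 98.1%, 97.0% and 94.9%. Gstt3 stood at the other end, above 37.2% of genes (18.1% with quantile normalisation), and Gstt1 and Gsta3 moved most between the scalings, Gstt1 to 21.0% against 57.5% and Gsta3 to 33.1% against 53.8%. On the 75th percentile scale the median SD was 0.327 over the 10 genes and 0.175 over all 17613. The order replicate 1 over 2 over 3 was shown by 5 of the 10 genes (Gsta2, Gsta4, Gstm1, Gstm2 and Gstm3), against 18.2% of all genes, an order examined after it had been seen. It was shown by 6 of 10 genes, the same 5 and Gsta3, against 22.7% with quantile normalisation, and by 5 of 10 against 17.5% with normexp background correction.

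Other measures also differed between the HFD arrays. The summed signal of 13 Kupffer cell and macrophage markers, in multiples of each array's 75th percentile, was 131, 66.1 and 66.5 in replicates 1, 2 and 3, and 13 of 13 were highest in replicate 1. Summed hepatocyte markers read 3721, 5463 and 5298, lowest in replicate 1, and 0 of 14 were highest there. Cholangiocyte markers read 9.34, 4.53 and 2.73, and stellate cell markers 109, 104 and 81.7. Other sums that were lowest in replicate 1 were those of adipose markers (1.90, 10.9 and 7.18) and lymphocyte markers (12.1, 19.6 and 19.1). The same held for blood cell markers (52.7, 81.4 and 81.5) and male-biased genes (886, 1235 and 1529). By single marker, however, 6 of 9 lymphocyte, 3 of 6 adipose and 2 of 5 blood cell markers were highest in replicate 1, as was 1 of 18 male-biased genes. Markers well above background on no HFD array numbered 2 for lymphocytes, 2 for adipose, 2 for cholangiocytes and 1 for blood cells. Endothelial markers read 31.5, 37.2 and 31.3, and female-biased genes 173, 312 and 147. Of the 21 female-biased genes, 11 were highest in replicate 1 and 16 were lowest in replicate 3. Of the 7 endothelial markers, 2 were highest in replicate 1 and 5 were lowest in replicate 3. Replicate 1 also had the lowest share of spots well above background (57.0%) and the brightest negative controls, at a mean signal of 46.9, against 29.9 to 31.4 for every other array in the series. The part of these differences in the levels of the glutathione S-transferase genes was not tested.

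Genes around glutathione conjugation were counted in the same comparison, in which 2.47% of all genes were listed as higher and 2.12% as lower in HFD, and 1.0% were called higher and 0.810% lower. Of 22 genes of glutathione synthesis and recycling, 5 were listed, 4 higher and 1 lower, and of these 2 passed the threshold, both higher. The median log2 difference of the 5 was 0.74. Over all listed genes, higher and lower together, it was 0.44, and the median size regardless of sign was 0.827. The 2 that passed were Pgd (2.01-fold, adjusted p of 0.0424, limma) and Tkt (1.66-fold, adjusted p of 0.0457, limma). Pgd is an NADPH-forming enzyme of the pentose phosphate pathway, and Tkt is the transketolase of the same pathway. Me1 (2.33-fold, adjusted p of 0.0668, limma) and Taldo1 (1.47-fold, adjusted p of 0.0545, limma) were also higher without passing. Cth was lower (1.67-fold, adjusted p of 0.0777, limma) and did not pass either. Of 23 peroxidase and thioredoxin genes, 3 were listed, all higher, and 2 of them passed the threshold. These were Gpx8 (1.87-fold, adjusted p of 0.0463, limma), a peroxidase of the endoplasmic reticulum, and Sod3 (1.79-fold, adjusted p of 0.0483, limma), the extracellular superoxide dismutase.

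Of 24 NRF2 pathway and target genes, 1 was listed, the conjugate exporter Abcc3 (log2 difference 0.94, adjusted p of 0.0527, limma), and none passed. This list did not hold Pgd, Tkt, Taldo1 or Me1, which were counted above. Its count therefore does not cover every gene on which NRF2 may act. None of 8 xenobiotic receptor genes was listed. Of 28 other conjugating enzymes 2 were listed, both higher in HFD, and 1 passed the threshold. That was the sulfotransferase gene Sult1c2 (2.88-fold, adjusted p of 0.0253, limma). Of 21 genes of conjugate export and mercapturate formation, 6 were listed, 3 higher (Abcc3, Abcc6 and Abcb1a) and 3 lower (Ggt6, Nat8 and Kyat1). The 1 gene of the 6 that passed the threshold was Nat8 (2.52-fold lower in HFD, adjusted p of 0.0218, limma), whose human counterpart acetylates cysteine conjugates in the last step of mercapturate formation. With the variance prior from all 3 HFD arrays, no gene of the array passed the threshold without HFD replicate 1 or without chow replicate 1 (0 higher and 0 lower, limma), while all 1488 listed genes had an unadjusted p under 0.05. With the prior re-estimated from the remaining HFD arrays, an alternative added after the data were seen, 112 genes passed as higher and 120 as lower without HFD replicate 1. Genes outside the table carry no diet value here, so their counts say only that they were not listed.

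Sex-biased and cell type lists are to be read against the same shares over all genes, 2.47% listed as higher, 2.12% listed as lower, 1.0% called higher and 0.810% called lower. Of 18 male-biased liver genes 4 were listed, all lower in HFD, and the 1 that passed was Gstp1 itself. Of 21 female-biased genes 5 were listed, all higher in HFD, and 4 passed. Of 13 macrophage markers, 3 were listed (Itgam, Ccr2 and Gpnmb) and all 3 passed as higher. Of 14 hepatocyte markers 2 were listed, both lower in HFD, and 1 passed, Serpina1a (1.43-fold, adjusted p of 0.0457, limma). The other, Cps1, was 2.56-fold lower in HFD (adjusted p of 0.0531, limma). Of 10 stellate cell markers 3 were listed and none passed, of 5 blood cell markers 1 was listed and did not pass, and no cholangiocyte, endothelial, lymphocyte or adipose marker was listed. What part these genes had in the differences of Gstm2, Gstt1 and Gstp1 was not tested.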

How the data were processed

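Liver RNA of 3 HFD and 4 chow samples was measured on 1-colour Agilent arrays, 1 per sample. Per the file headers, the scanner files hold Feature Extraction (10.7.3.1) intensity values, with a background-subtracted processed signal, and version 9.1 is the one given by the submitters' processing notes. A second file, the authors' deposited table, holds log2 levels of 1615 probes. Neither the labels nor the headers state how they were normalised or selected. Column medians were 9.68 to 9.85 in HFD and 9.55 to 9.56 in chow, and the scale and centring of the chow columns could not be checked against scanner values. The scanner files also carry other numbers (flags for spots well above background), used as given per the file headers.

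Of 39429 probes, 27234 were named by RefSeq accession (GRCm38.p6, names only), and the array headers name build mm9. A gene was represented by its probe with the highest mean. Diets were compared on the table by a two-sided linear model in limma (version 3.58.1, under R 4.3.3), with variances moderated toward a prior (0.0363, 2.14 degrees of freedom) estimated on 19494 genes that 2 or more HFD arrays detected well above background. Genes outside the table had a p of 1 in the Benjamini-Hochberg adjustment over 32451 genes. An exact permutation test of 3 against 4 samples cannot go below 0.0571. HFD scanner levels are log2 processed signal minus each array's 75th percentile. The fit was tested on simulated data.

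The genes, the lists and the tests were chosen with earlier results of these data known. Named genes were all 10 members, listed genes of each pathway list that passed (at most 4 by size of fold) or that had the smallest p, and the 3 listed genes most like each member. Gprc5b, Gpnmb and Ccr2 and the others most alike came from that rule. Sex-biased and cell type lists were given by counts, and from them only Gstp1, Serpina1a, Cps1, Itgam, Ccr2 and Gpnmb were named. Serpina1a, Cps1, Itgam, Me1, Taldo1, Cth, Abcc6, Abcb1a, Ggt6, Kyat1 and Gstp2's second probe were named after their values were seen. Alternatives were each sample left out, the replicate number as a block, other priors, adjustments, probes and floors, and the scanner files as labelled. Protein and probe sequences were not used here. Normexp used the median spot signal (offset 50) in place of the mean spot signal that had been planned.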

Additional observations from a re-analysis of the deposited data

Results flagged for a closer look

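In Gstt1, chow replicate 1, with a deposited log2 level of 15.53, stood apart from the other 3 chow samples, which lay between 15.81 and 15.85. Its gap to the nearest of them exceeded Dixon's 95% limit for 4 values, which chance passes in about 1 of 20 groups. Without that sample the log2 difference of Gstt1 was 0.59, with an adjusted p of 0.0909 (limma), against 0.67 and 0.0456 with all 7 samples. The 3 HFD samples were too few for the same check.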

How the results depend on the processing

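Direction was the same for Gstm2, Gstt1 and Gstp1 in every fit to the deposited table, which its selection fixed. Leaving out each sample in turn, with the prior from all 3 HFD arrays, gave log2 differences of 1.09 to 1.52 for Gstm2, 0.59 to 0.70 for Gstt1 and -1.28 to -1.06 for Gstp1. All 3 calls were lost in 6 of the 7 fits, and without HFD replicate 3 that of Gstt1 was lost. Over all genes these fits called 0 to 242 higher and 0 to 208 lower: the fit lacking HFD replicate 1 called 0 and 0, that lacking HFD replicate 2 called 4 and 4, and that lacking HFD replicate 3 called 242 and 208. Among chow samples, dropping replicate 1 left 0 and 0 calls, dropping replicate 2 left 48 and 51, dropping replicate 3 left 4 and 7, and dropping replicate 4 left 2 and 1. Of the 10 genes they called 0 to 1 higher and 0 to 1 lower. Beside each limma count of 0 stands an unadjusted p under 0.05 for all 1488 listed genes, since the table was selected. After these calls had been seen, the prior was also re-estimated from the remaining 2 arrays where an HFD sample was left out, which moved 1 call of the 3 genes. Without HFD replicate 1, Gstp1 had an adjusted p (limma) of 0.0453 in that fit and 0.0847 with the prior from all 3 arrays, and 112 and 120 genes were called. Omitting HFD replicate 2, it called 5 and 4 genes, and omitting HFD replicate 3, it called 372 and 341. These added fits gave log2 differences of 1.09 to 1.52 for Gstm2 (1.22 without HFD replicate 2), 0.62 to 0.70 for Gstt1 (0.69 without HFD replicate 2) and -1.28 to -1.06 for Gstp1. The replicate block gave 1.21 for Gstm2, 0.70 for Gstt1 and -1.12 for Gstp1, with adjusted p (limma) of 0.363, 0.262 and 0.222, and called 0 and 0 genes and 0 and 0 of the 10. Same-numbered samples had correlations of -0.10, 0.14 and 0.03, and 1 of 3 HFD samples correlated best with its own number, so the numbers were not taken to pair the samples. The table's own prior called 552 genes higher and 474 lower, a prior from genes well above background on all 3 HFD arrays called 496 and 423, and adjustment over the table alone called 801 and 687. Those fits, the mean of a gene's probes and a detection floor kept all 3 calls. The scanner files as labelled turned Gstp1 to 1.49 (adjusted p of 1.81e-05, limma). They called 7 of the 10 genes higher and 1 lower, Gsta2 (log2 difference -1.81, adjusted p of 0.00188, limma). Of 20899 genes they called 8370 higher and 8398 lower. These files do not match the table's chow columns, so they were not used for the diet comparison. The cause of these changes was not tested. Signal over background did not limit the 10 genes on the HFD arrays.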
